A study of Homo sapiens with 6 samples.

Results

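The genes described here are 10 genes of proteases and protease inhibitors: the metallocarboxypeptidase gene CPA4 and its inhibitor gene LXN, the cystatin genes CST6, CST3, CSTA and CSTB, and the protease genes CTSL, CTSV, CTSB and LGMN. They were taken by symbol from a raw count table of 60564 genes, where each of the 10 symbols matched 1 row. The set was chosen by name with the counts of the same contrast known, in which CPA4 and CST6 stood among the larger rises, so its values in that contrast are given as a description and support nothing. Of the 10, 9 passed the filter on low counts and were among the 18786 genes tested, and LXN did not pass. RNA was sequenced from CAL27, an established line of human oral squamous carcinoma cells, in 3 control libraries and 3 libraries called CNTNAP2-203 OE (overexpression). All cells carried a lentivirus and had been under puromycin selection (5 μg/ml) for 2 weeks. The virus held either a control vector, which the sample descriptions name EGFP and whose genotype is given as WT, or CNTNAP2-203, a transcript of CNTNAP2. The labels do not state whether replicates are separate cultures or infections, so errors and p-values reflect library-to-library spread, which may be technical.

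CPA4 encodes a secreted zinc protease that removes hydrophobic residues from the carboxyl end of peptides, and LXN encodes latexin, a protein inhibitor of the A/B carboxypeptidases. Cystatins are tight-binding, reversible inhibitors of papain-type cysteine proteases. Cystatins A and B act inside cells, cystatins C (CST3) and E/M (CST6) are secreted, and cystatins C and E/M inhibit legumain as well. Cathepsins B, L and V and legumain (LGMN), an asparaginyl endopeptidase, work mainly in lysosomes. In stratified squamous epithelium, cystatin E/M, cathepsins L and V and legumain take part in cornification, in which transglutaminases cross-link the proteins of the cell envelope.

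Total counts lay between 36843190 and 42412703 per library, with 25336 to 27002 genes detected. CNTNAP2 had 0, 3 and 4 counts in control replicates 1, 2 and 3, and 140022, 156055 and 119280 counts in CNTNAP2-203 OE replicates 1, 2 and 3. CNTNAP2-203 OE replicate 3 had the lowest total, the fewest detected genes and the lowest scaling factor (0.951, against 0.999 to 1.02), and values that it moves strongly are also given without it. For control replicate 1 the labels say that the reverse reads were missing, and a fit without it is among the alternatives below. The 8 squamous epithelial markers looked at were abundant in both groups, with summed levels of 13722 to 15577 CPM in control and 13838 to 17022 CPM in CNTNAP2-203 OE (CPM, counts per 1e6 after TMM scaling). Of the 8, 4 had a positive and 4 a negative log2 fold change, and edgeR called none. Without overlap of the groups, KRT5 and EPCAM were higher and KRT17 was lower in CNTNAP2-203 OE. TP63 was at 187 to 258 CPM in control and at 197, 190 and 70.9 CPM in CNTNAP2-203 OE replicates 1, 2 and 3. Summed levels were 40.9 to 45.9 against 40.0 to 42.9 CPM for 6 fibroblast markers, mostly from COL1A1 and LUM, 24.4 to 35.0 against 24.4 to 31.1 CPM for 6 leukocyte markers, mostly from CD14, and 5.98 to 9.58 against 7.74 to 11.5 CPM for 4 endothelial markers. Of these markers KDR had 0 counts in every library, and COL3A1, DCN, PTPRC, LYZ and PECAM1 had at most 13. CDH5, an endothelial cadherin, had 170 to 410 counts and made up most of the endothelial sum, VWF had 53 to 101, PDGFRB 28 to 67 and CD3E 19 to 51, with overlapping groups for each. The part of such markers in the results was not tested. In such a bulk sample, fewer cells that express a gene and less RNA per cell cannot be told apart.

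Among the 9 tested genes, CPA4 and CST6 were higher in CNTNAP2-203 OE and passed the test over all genes (edgeR quasi-likelihood, Benjamini-Hochberg adjusted p below 0.05), and none was called lower. Of all tested genes, 1.39% were called, 0.798% as higher and 0.596% as lower. As the set was picked with this contrast known, nothing is read from its count. The log2 fold change was positive in 5 and negative in 4 of the 9, with a median of 0.014, against a median of -0.0038 over all tested genes. The groups did not overlap for 4 of the 9, which were CPA4, CST6, CTSV and LGMN, and for 26.5% of all tested genes.

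**Figure D1:**
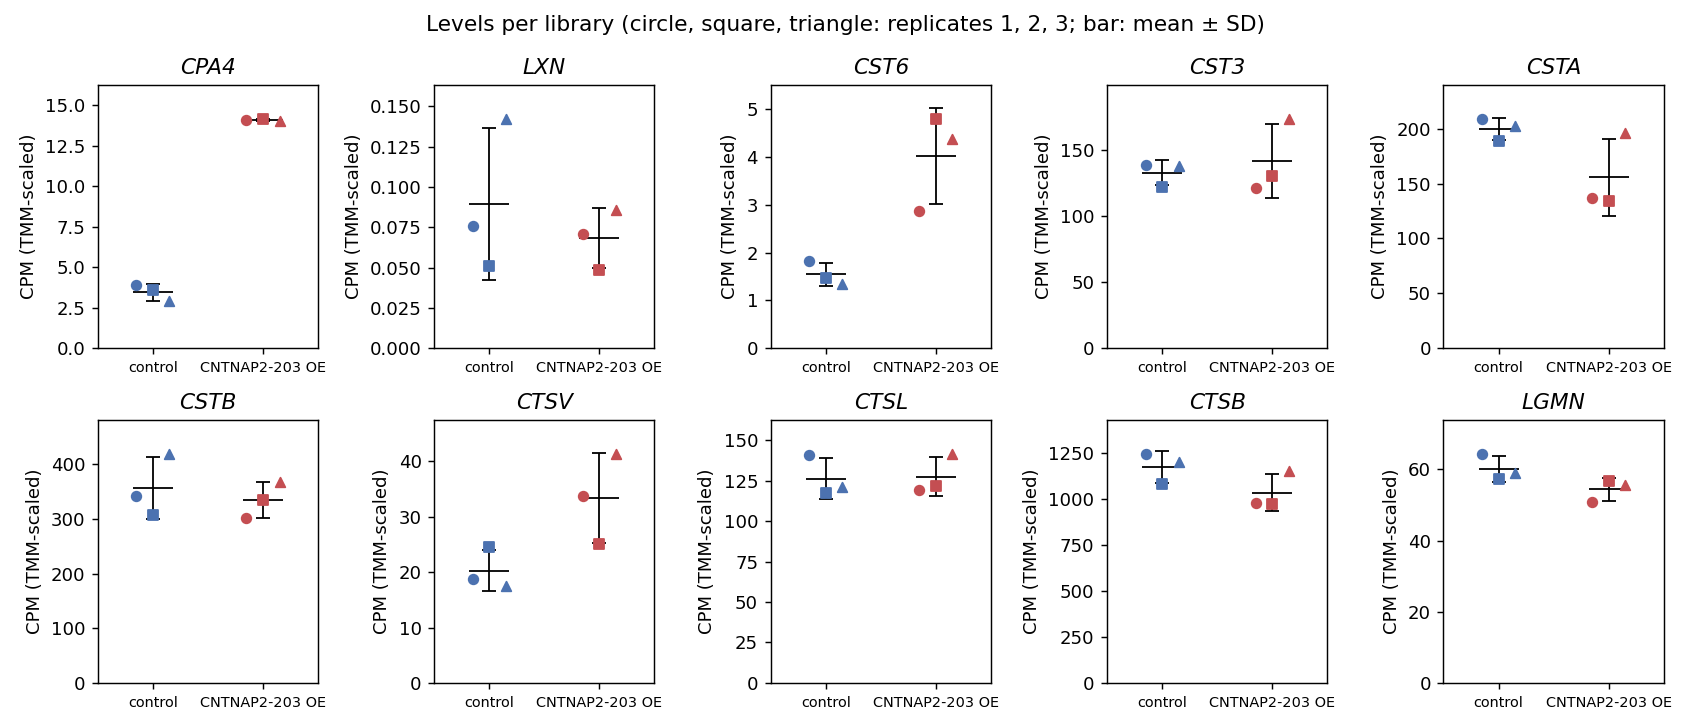
Level of each of the 10 genes in CPM (linear axes from 0) in 3 control (blue) and 3 CNTNAP2-203 OE (red) libraries, with circles, squares and triangles for replicates 1, 2 and 3 and bars for the mean ± SD. CPA4 stands at 14.0 to 14.1 CPM in CNTNAP2-203 OE, above all controls, while the groups overlap for CST3, CSTA, CSTB, CTSL and CTSB.

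CPA4 (ENSG00000128510; GRCh38, chromosome 7, 130293134 to 130324180, plus strand) was the gene of the set that differed most. It had 155, 141 and 122 counts in control replicates 1, 2 and 3, and 598, 584 and 491 counts in CNTNAP2-203 OE replicates 1, 2 and 3. In scaled units this was 3.91, 3.57 and 2.89 CPM against 14.1, 14.1 and 14.0 CPM. All CNTNAP2-203 OE libraries were thus nearly equal and far above each control. The means were 14.1 ± 0.0576 against 3.46 ± 0.520 CPM (SD, n = 3 each), a ratio of 4.08. The log2 fold change was 2.03 (SE 0.157), and leaving out CNTNAP2-203 OE replicate 3 gave the same 2.03. CPA4 overlaps no other gene in GENCODE 29, and no transcript of another gene resembled it in the search described with the processing.

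The sequence before the start of CPA4 is shown because CPA4 has the largest difference of the set. These are the 250 bases before its RefSeq start, on the plus strand of GRCh38.p14 (chr7:130292911-130293160), of which the last 27 lie in its first exon as GENCODE places it. Capitals mark matches to TGANTCA, the letters bound by AP-1 factors.
CPA4: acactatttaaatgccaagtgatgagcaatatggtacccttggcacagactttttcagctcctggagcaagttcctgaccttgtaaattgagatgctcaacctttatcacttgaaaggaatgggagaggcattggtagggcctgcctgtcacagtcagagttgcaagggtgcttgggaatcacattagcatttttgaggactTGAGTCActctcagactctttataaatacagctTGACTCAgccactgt

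The window holds 2 matches to TGANTCA, whose reverse complement is the same pattern, beginning 48 and 15 bases before the RefSeq start. By GENCODE, the match at 15 lies inside the first exon of CPA4 and the match at 48 lies before it. At least 1 match was present in 6.57% of 35116 human promoter windows of this length, and 2 or more in 0.402%. RefSeq windows were found for 5 of the 10 genes, and those of LXN, CST3, CTSL and CTSV held no match. Of the 250 bases of these windows, 45, 71, 250 and 168 lie in exons of the same gene as GENCODE places them. The CTSL window and most of the CTSV window are thus exon sequence by that annotation. For TTCCCGC, a core that E2F factors bind, searched on both strands and not overlapping the first motif, CTSV held 2 matches and the other 4 windows none, and 5.52% of all windows held at least 1 and 0.350% 2 or more. Both motifs were picked after the letters had been seen, and a match describes the letters only, with no measure of binding.

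LXN (ENSG00000079257; chromosome 3, 158645822 to 158672693, minus strand), whose product inhibits carboxypeptidases of this type, was close to undetected in both groups. It had 3, 2 and 6 counts in the controls and 3, 2 and 3 counts in CNTNAP2-203 OE, that is 0.0507 to 0.142 and 0.0484 to 0.0857 CPM. The pooled counts were 8 against 11. Relative to the TMM-scaled library sizes their ratio was 0.744, with an exact Clopper-Pearson 95% interval of 0.260 to 2.03, which covers counting error only. The interval gives the ratios that these pooled counts allow and is not a limit of detection. LXN itself was not tested. LXN lies within the bounds of GFM1 on the opposite strand, which had 3392 to 4515 counts. The kit keeps no strand information, so reads of LXN and GFM1 cannot be told apart where their exons meet. RARRES1, which encodes a relative of latexin, was at 1.54 to 3.39 CPM in control and 2.08 to 2.67 CPM in CNTNAP2-203 OE, and these ranges overlap.

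Of the other carboxypeptidases of the same metalloprotease family, none was called. Apart from CPA4 and LXN, 17 listed genes of this family (RARRES1 included) were matched and 8 were tested, of which 4 had a positive and 4 a negative log2 fold change, with a median of -0.16. Neither edgeR nor DESeq2 called any of the 8. Of the 8, 2 had an unadjusted edgeR p under 0.05, against 3240 of all 18786 tested genes. The pancreatic gene CPB1 and the mast cell gene CPA3 had 0 counts in every library. CPD, a carboxypeptidase of the trans-Golgi network and the most abundant of the family by CPM, was at 169, 188 and 180 CPM in control and at 144, 163 and 101 CPM in CNTNAP2-203 OE. Its libraries did not overlap by group, and replicate 3 of CNTNAP2-203 OE was the lowest (log2 fold change -0.39, SE 0.169, edgeR adjusted p = 0.284). Without that replicate the log2 fold change of CPD was -0.22 (edgeR adjusted p = 0.247). CPE, which trims prohormones, was at 6.91 to 8.23 against 4.67 to 5.93 CPM (log2 fold change -0.57, SE 0.161, edgeR adjusted p = 0.138).

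CST6 (ENSG00000175315; chromosome 11, 66011841 to 66013505, plus strand), which encodes cystatin E/M, was higher in CNTNAP2-203 OE at a low level. It had 72, 58 and 57 counts in control replicates 1, 2 and 3, and 122, 198 and 153 counts in CNTNAP2-203 OE replicates 1, 2 and 3. This was 1.82, 1.47 and 1.35 CPM against 2.88, 4.79 and 4.37 CPM. The groups did not overlap, and CNTNAP2-203 OE replicate 1 lay nearest to the controls. The means were 4.02 ± 1.01 against 1.54 ± 0.242 CPM (SD, n = 3 each), a ratio of 2.60. The log2 fold change was 1.38 (SE 0.254). Its call stood close to the threshold (edgeR adjusted p = 0.0495) and was lost whichever of the 6 libraries was left out (0.0655 to 0.216), while the log2 fold change ran from 1.23 to 1.57.

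CST3, which encodes cystatin C, the other secreted cystatin that passed the filter, had overlapping groups. It was at 139, 122 and 138 CPM in control and at 121, 131 and 174 CPM in CNTNAP2-203 OE, with a log2 fold change of 0.092 (SE 0.146). Its highest value was in CNTNAP2-203 OE replicate 3, and without that library the log2 fold change turned to -0.084. CST3 (ENSG00000101439; chromosome 20, 23626706 to 23638473, minus strand) contains the small noncoding gene AL121894.2, which had at most 11 counts. Per length (FPKM, fragments per kilobase of transcript and per 1e6 fragments), CST3 was the more abundant of the pair, at 12.5, 13.7 and 17.0 times the FPKM of CST6 in control and at 6.91, 4.46 and 6.51 times in CNTNAP2-203 OE. The share of CST6 in their summed FPKM was 7.39%, 6.79% and 5.55% in control and 12.6%, 18.3% and 13.3% in CNTNAP2-203 OE.

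The intracellular cystatins differed in how far their libraries lay apart. CSTA, which encodes cystatin A, a precursor protein of the cornified envelope, was at 209, 189 and 202 CPM in control and at 137, 134 and 196 CPM in CNTNAP2-203 OE. Replicates 1 and 2 of CNTNAP2-203 OE were below each control, and replicate 3 lay within the control range. The log2 fold change was -0.36 (SE 0.155) with all libraries and -0.56 without CNTNAP2-203 OE replicate 3, a fit in which CSTA was called lower (edgeR adjusted p = 0.0179). CSTA (ENSG00000121552) lies on chromosome 3 from 122325244 to 122341972 on the plus strand.

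CSTB (ENSG00000160213; chromosome 21, 43772511 to 43776445, minus strand), which encodes the broadly expressed cystatin B, was at 343, 307 and 419 CPM in control and at 302, 334 and 367 CPM in CNTNAP2-203 OE. The groups overlapped, and control replicate 3 was the highest library. The log2 fold change was -0.091 (SE 0.137), and without control replicate 3 it was 0.039. The ratio of CSTA to CSTB in FPKM was 1.76, 1.78 and 1.40 in control and 1.31, 1.16 and 1.54 in CNTNAP2-203 OE, so these ranges overlap as well. The other 10 listed cystatin genes were not tested: CST1, CST4, CST8 and CST11 had 0 counts in every library, and the 10 together summed to 0.151 to 0.228 CPM in control and 0.0857 to 0.283 CPM in CNTNAP2-203 OE.

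**Figure D2:**
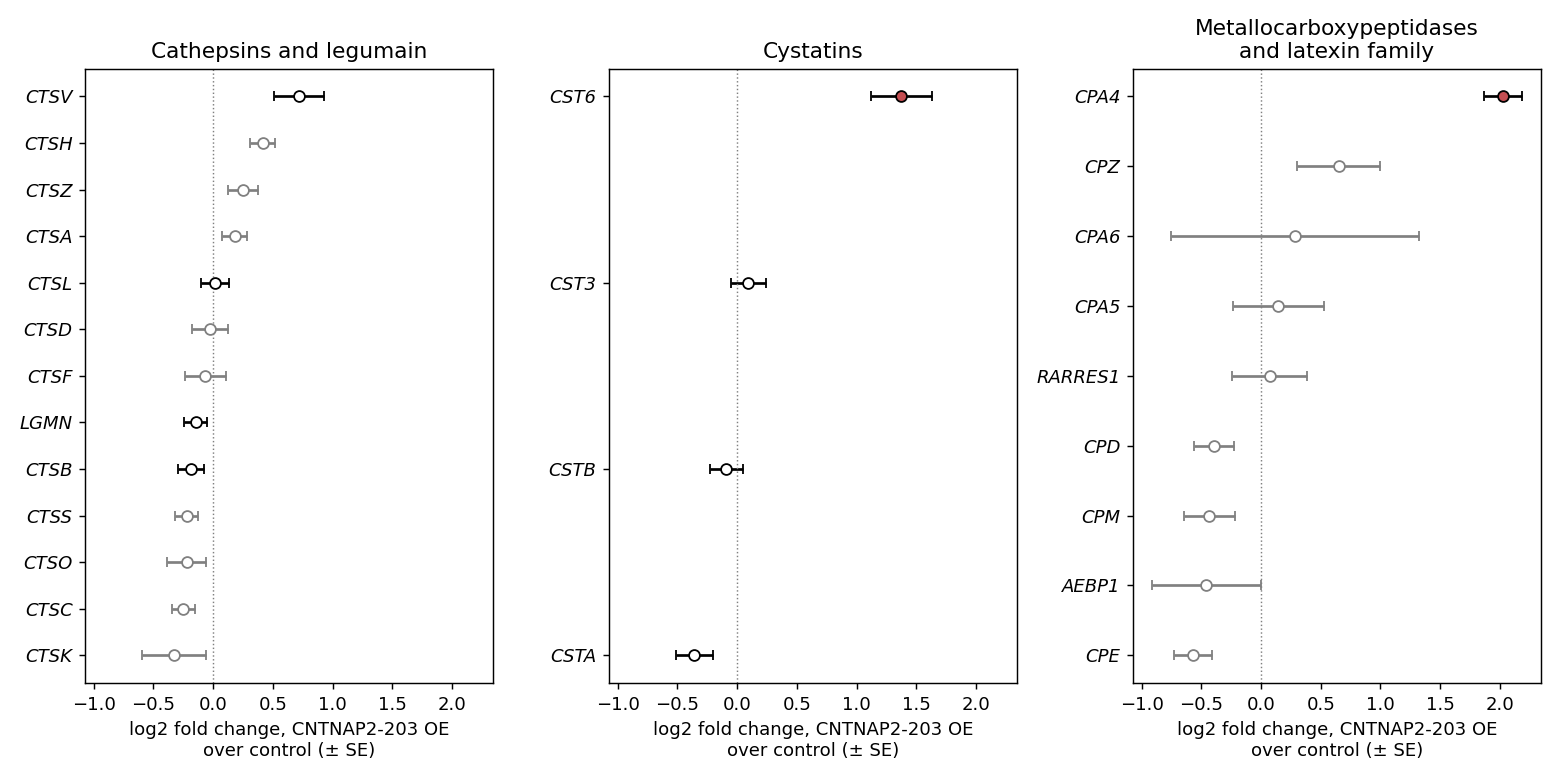
Log2 fold change of CNTNAP2-203 OE over control with its SE for the tested cathepsins and legumain, cystatins, and metallocarboxypeptidases with the latexin family. Black outlines mark the 9 tested genes of the set, grey the other genes, and a red fill a call. CPA4 (2.03) and CST6 (1.38) are the filled points, and CTSV (0.72) is the highest cathepsin.

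Among the target proteases, CTSV, which encodes cathepsin V, was higher on average in CNTNAP2-203 OE without passing the test. CTSV (ENSG00000136943; chromosome 9, 97029679 to 97039643, minus strand) was at 18.8, 24.5 and 17.5 CPM in control and at 33.7, 25.1 and 41.4 CPM in CNTNAP2-203 OE. Each CNTNAP2-203 OE library was above each control, but replicate 2 of both groups nearly met. The means were 33.4 ± 8.15 against 20.3 ± 3.69 CPM (SD, n = 3 each), and the log2 fold change was 0.72 (SE 0.206). The edgeR adjusted p was 0.141. DESeq2, which called 1063 of the 14951 genes that it gave an adjusted p, called CTSV (adjusted p = 0.0267). Leaving out CNTNAP2-203 OE replicate 3 gave a log2 fold change of 0.53.

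CTSL, which encodes cathepsin L, the closest relative of cathepsin V, differed by less than its error. CTSL (ENSG00000135047; chromosome 9, 87725519 to 87731393, plus strand) was at 141, 117 and 121 CPM in control and at 119, 122 and 141 CPM in CNTNAP2-203 OE. The groups overlapped fully, and the log2 fold change was 0.014 (SE 0.115), with a negative sign in 4 of the 12 alternatives. The share of CTSV in the summed FPKM of both genes was 5.17%, 7.82% and 5.58% in control and 10.3%, 7.71% and 10.6% in CNTNAP2-203 OE, so that replicate 2 of CNTNAP2-203 OE fell just below control replicate 2. The transcripts of CTSL and CTSV were 82.0% identical over 1220 aligned bases, and CTSL was 88.2% identical over 1003 bases to the pseudogene CTSLP1, which had 0 counts. The sources used here do not say how reads that fit several genes were treated, so the split between these genes is uncertain to that extent.

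CTSB (ENSG00000164733; chromosome 8, 11842524 to 11869448, minus strand), which encodes cathepsin B, was the most abundant of the 10 genes. It was at 1245, 1079 and 1200 CPM in control and at 980, 972 and 1150 CPM in CNTNAP2-203 OE. Replicates 1 and 2 of CNTNAP2-203 OE were below each control, and replicate 3 was within the control range. The log2 fold change was -0.18 (SE 0.110), and -0.27 without CNTNAP2-203 OE replicate 3, a fit in which it was not called either (edgeR adjusted p = 0.135). Its share of the summed FPKM of the 11 papain-family cathepsin genes was 39.5%, 37.9% and 39.7% in control and 35.6%, 35.1% and 35.2% in CNTNAP2-203 OE, and these ranges did not overlap. The noncoding gene AC025857.2 inside CTSB had at most 153 counts, against 40129 to 50694 for CTSB.

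LGMN (ENSG00000100600; chromosome 14, 92703807 to 92748702, minus strand), which encodes legumain, was slightly lower in every CNTNAP2-203 OE library. It was at 64.3, 57.3 and 59.0 CPM in control and at 50.7, 56.8 and 55.6 CPM in CNTNAP2-203 OE. The groups did not overlap, but control replicate 2 and CNTNAP2-203 OE replicate 2 were almost equal (log2 fold change -0.15, SE 0.099). In FPKM, CST6 stood at 0.184, 0.166 and 0.148 of LGMN in control and at 0.370, 0.551 and 0.515 of it in CNTNAP2-203 OE. The pseudogene LGMNP1, 93.1% identical to LGMN over 1301 bases, had at most 5 counts in a library.

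**Figure D3:**
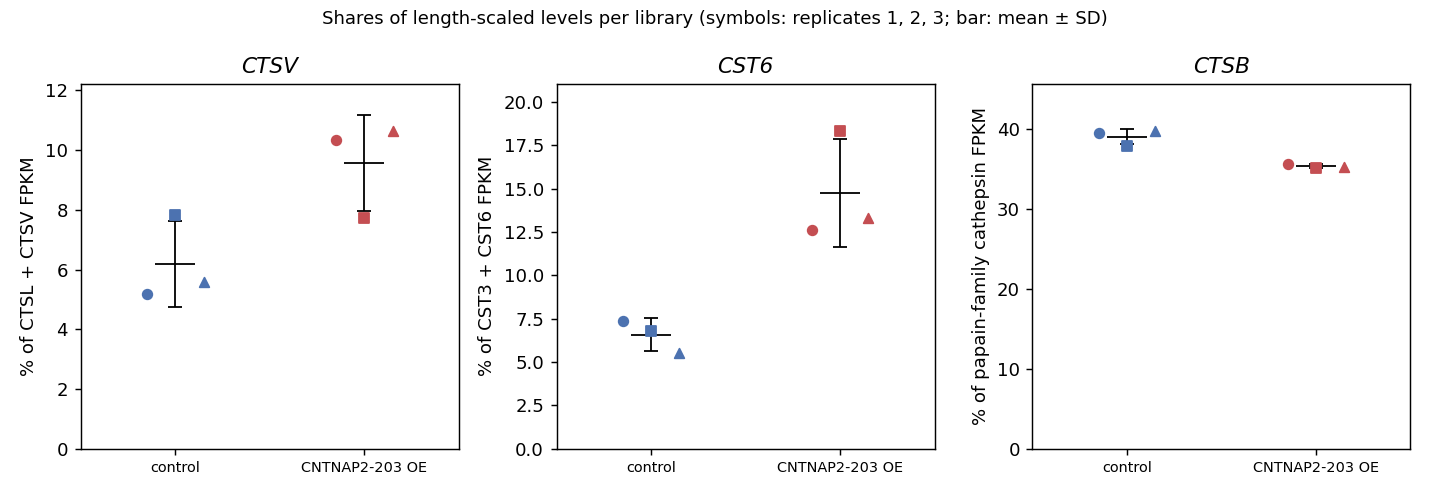
Share of CTSV in the summed FPKM of CTSL and CTSV, of CST6 in that of CST3 and CST6, and of CTSB in that of 11 papain-family cathepsin genes, in percent, per library (circle, square, triangle for replicates 1, 2 and 3; bars for the mean ± SD). The CST6 share lies at 5.55% to 7.39% in control and 12.6% to 18.3% in CNTNAP2-203 OE, while the CTSV shares of the groups overlap at replicate 2.

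Beyond the 4 protease genes of the set, 9 further cathepsin genes were tested and edgeR called none. Of these, 3 had a positive and 6 a negative log2 fold change, with a median of -0.066. An unadjusted edgeR p under 0.05 was found for 2 of the 9, and for 3240 of all 18786 tested genes. CTSH, an aminopeptidase of the papain family, was at 108, 113 and 102 CPM in control and at 143, 131 and 156 CPM in CNTNAP2-203 OE, with no overlap between the groups (log2 fold change 0.41, SE 0.101, edgeR adjusted p = 0.0993). DESeq2 called CTSH. CTSC, which activates granule serine proteases, was at 795 to 874 CPM in control and 656 to 745 CPM in CNTNAP2-203 OE (log2 fold change -0.25, SE 0.096, edgeR adjusted p = 0.235). CTSD, the lysosomal aspartic protease, was at 568 to 854 against 685 to 746 CPM, and these ranges overlap.

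Compared per length, the 10 genes spanned more than 3 orders of magnitude. In control the mean FPKM was 133 for CTSB, 121 for CSTA, 74.8 for CSTB, 56.6 for CTSL, 30.5 for CST3, 12.9 for LGMN, 3.70 for CTSV, 2.15 for CST6, 0.709 for CPA4 and 0.0472 for LXN. Only CTSB (123 to 141) and CSTA (115 to 127) overlapped among neighbours in this order. In CNTNAP2-203 OE the order of the means was the same, with 2.86 FPKM for CPA4 and 0.0306 FPKM for LXN. There CTSB and CSTA overlapped again, as did CTSV (4.55 to 7.04) and CST6 (3.96 to 6.69). Summed over CSTA, CSTB, CST3 and CST6, cystatin FPKM was 0.652, 0.647 and 0.712 of the summed papain-family cathepsin FPKM in control and 0.572, 0.599 and 0.653 of it in CNTNAP2-203 OE, so that the groups overlapped. This ratio and that of CST6 to LGMN compare RNA only. Protein levels and inhibition of the proteases are not in these data.

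**Figure D4:**
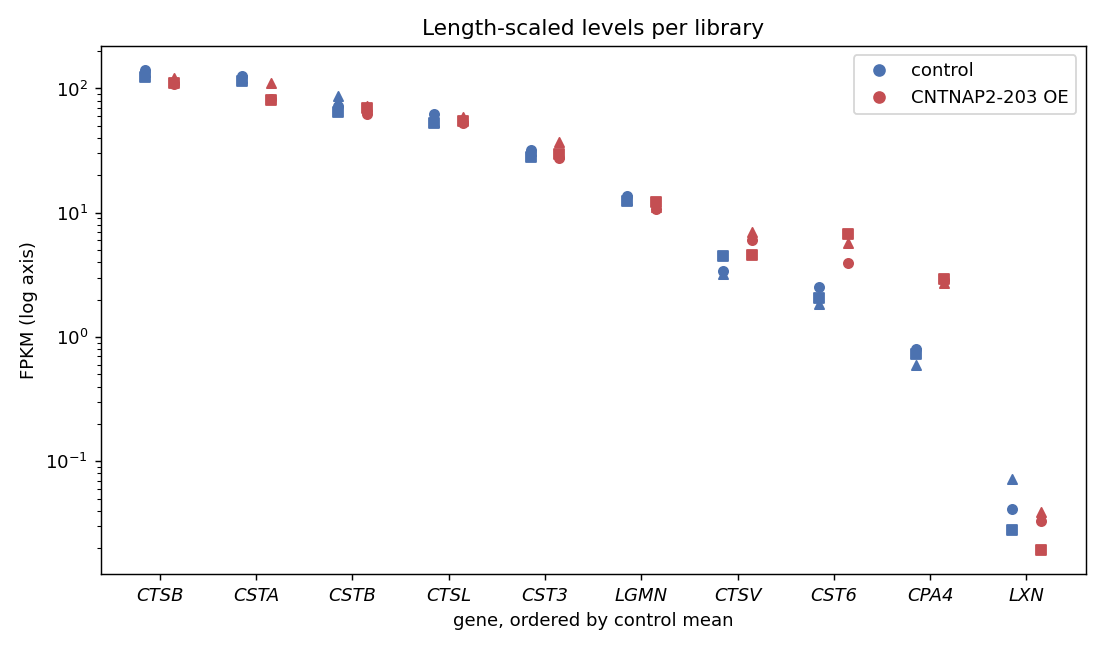
FPKM (log axis) of the 10 genes in each control (blue) and CNTNAP2-203 OE (red) library, ordered by the control mean, with circles, squares and triangles for replicates 1, 2 and 3. Levels run from above 100 FPKM for CTSB to below 0.1 FPKM for LXN, and the order of the group means is the same in both groups, although CST6 (6.69) is above CTSV (4.55) in CNTNAP2-203 OE replicate 2.

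Genes of other lysosomal proteins showed no common direction. All 40 listed genes of lysosomal hydrolases, membrane proteins and their sorting and transcription factors were tested, with 20 positive and 20 negative log2 fold changes and a median of -0.025. An unadjusted edgeR p under 0.05 was found for 12 of the 40, against 3240 of all 18786 tested genes. GLA, alpha-galactosidase A, was the 1 called gene, at 28.5, 24.5 and 23.9 CPM in control and 38.4, 37.8 and 44.2 CPM in CNTNAP2-203 OE (log2 fold change 0.65, SE 0.121, edgeR adjusted p = 0.0497). Its call was lost with another scaling (0.0504) and when any 1 library other than CNTNAP2-203 OE replicate 3 was left out (up to 0.237). GLA overlaps the readthrough gene RPL36A-HNRNPH2 on the opposite strand, which had 741, 14 and 811 counts in the controls and 83, 880 and 738 counts in CNTNAP2-203 OE, and reads of both strands cannot be told apart.

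Transglutaminases and the intracellular serpins that inhibit proteases were counted because they act beside cystatin E/M in the epithelium. Of 9 listed genes 8 were tested, and edgeR, DESeq2, limma-voom and limma-trend called none. The fold change was below 1 in 7 of the 8 (median log2 fold change -0.27), and 5 had an unadjusted edgeR p under 0.05 (4 with lower and 1 with higher means), against 3240 of the 18786 tested genes. The 1 with a higher mean was TGM5, a transglutaminase of keratinocytes, at 0.504, 0.709 and 0.379 CPM in control and 0.827, 1.07 and 1.20 CPM in CNTNAP2-203 OE, with groups that do not overlap (log2 fold change 0.95, SE 0.344, edgeR adjusted p = 0.215). TGM3, a transglutaminase of terminal differentiation, had 0 counts in every library. SERPINB3, an inhibitor of papain-type proteases, was at 188 to 194 CPM in control and 142 to 163 CPM in CNTNAP2-203 OE (log2 fold change -0.32, SE 0.092, edgeR adjusted p = 0.141). Without CNTNAP2-203 OE replicate 3 it was called lower (-0.37, edgeR adjusted p = 0.0418). TGM1, the membrane-bound transglutaminase of keratinocytes, was at 7.07 to 8.76 against 5.36 to 5.98 CPM (log2 fold change -0.51, SE 0.151, edgeR adjusted p = 0.149).

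The genes whose log2 CPM followed CPA4 most closely over the 6 libraries were the actin-binding protein gene CNN3 (Pearson r = 0.999), the condensin gene NCAPG (0.998) and the mitotic checkpoint gene TRIP13 (0.997), out of 12476 candidates. All 3 were called higher. For CST6 they were ATAD3B (0.994), LRRC45 (0.991) and SDF4 (0.991), of which LRRC45 was called. These 6 points share the split into 2 groups and the libraries, so any gene with tight, separated groups has a high r, and the values are a description.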

How the data were processed

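RNA sequencing was measured in 6 libraries. Per the submitters' processing notes, reads were trimmed with Trim Galore 0.4.4 and the genome build was hg38. The sources used here do not give the aligner, counter or annotation. Per the labels' protocols, ribosomal RNA was depleted and libraries were made with the TruSeq RNA v2 kit, and for control replicate 1 the labels say that the reverse reads were missing. The authors deposited raw counts per gene, and a table of log2 values. Those log2 values deposited by the authors were read as log2(FPKM + 1), since counts divided by FPKM then gave nearly the same gene length in every library (median coefficient of variation 0.0897%, against 2.86% with an offset of 0).

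Counts were tested with edgeR 4.0.16 in R 4.3.3 over all genes (filterByExpr, minimum count 10; TMM; robust quasi-likelihood, group as the only term), with Benjamini-Hochberg adjustment at 0.05. SEs were obtained as the size of the log2 fold change over √F. CPM are TMM-scaled, and FPKM, used for levels between genes, are 2 to the power of the deposited log2 value, minus 1. Alternatives were RLE scaling, DESeq2 1.42.0, limma 3.58.1 (voom on counts, trend on the deposited log2 values), no filter, a replicate block and leaving out each library. Positions are from GENCODE 29, which held 98.6% of the tested identifiers. The longest coding transcript of each gene was searched with blastn 2.17.0 against all GENCODE transcripts for alignments of at least 75% identity over at least 25% of its length. The fit was tested on simulated data. The members and lists were chosen with earlier results of these data known. Named are the 10 genes, CNTNAP2, every listed gene that passed, and the 3 genes most like CPA4 and CST6 in log2 CPM (prior count 2; average log2 CPM of at least 1). Other genes were named after their values were seen.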

Additional observations from a re-analysis of the deposited data

How the results depend on the processing

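Of 108 log2 fold changes of the 9 tested genes under 12 alternatives, 91 kept their direction and their side of the threshold. CPA4 was called under all 12, with log2 fold changes of 1.91 to 2.13 among those on counts and 1.18 on the deposited log2 values, where the offset of 1 lowers it. The 6 reversals were in genes near 0: CTSL at -0.027 by limma-trend and at -0.036, -0.020 and -0.072 without control replicate 2, control replicate 3 and CNTNAP2-203 OE replicate 3, CSTB at 0.039 without control replicate 3, and CST3 at -0.084 without CNTNAP2-203 OE replicate 3. Without 1 library CTSL ranged from -0.072 to 0.098, CSTB from -0.19 to 0.039 and CST3 from -0.084 to 0.19. All genes called numbered 262, and 1063 by DESeq2, 166 by limma-voom, 165 by limma-trend and 14 to 545 when 1 library was left out (545 without CNTNAP2-203 OE replicate 3). Genes of the set called numbered 2, 3 by DESeq2 (CPA4, CST6 and CTSV), and 1 by limma-voom, limma-trend and in 5 of the 6 fits without 1 library (range 1 to 2). CSTA replaced CST6 without CNTNAP2-203 OE replicate 3. Cathepsins called were 0, and 2 by DESeq2 (CTSH and CTSV). Cystatins called were 1, 0 by limma-voom and limma-trend, and 0 to 1 without 1 library. Lysosomal genes called were 1, 0 with RLE scaling, limma-voom and limma-trend, 5 by DESeq2, and 0 to 2 without 1 library. Transglutaminases and serpins called were 0, and 0 to 1 without 1 library (SERPINB3, without CNTNAP2-203 OE replicate 3). The cause of these moves was not tested, and a fit of 5 libraries has fewer to estimate the spread.

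With the replicate number as a block (replicate block), 17 genes were called in all, 1 of the set (CPA4), 0 cystatins and 0 lysosomal genes. The labels do not say whether same-numbered libraries share more than a number. Their deviations from the group means correlated at -0.08, 0.05 and -0.03 for numbers 1, 2 and 3. Not every library correlated best with its own number. These few correlations cannot decide whether the libraries were paired, which was not tested. Depth limits LXN most, with 2 to 6 counts a library.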
